A study of Arabidopsis thaliana with 2 samples.

Results

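Arabinogalactan protein genes were examined in inflorescence stems of Arabidopsis thaliana sgr1 and wild type. The genes were those whose array description contains the word arabinogalactan, which gave 26 spots for 25 of the 25665 loci named on the array. By description 9 of the 25 are fasciclin-like and 16 are not. The 16 comprise 7 classical proteins, 3 lysine-rich classical proteins, 3 short AG peptides, the chimeric protein AGP31 and 2 loci described only as similar to arabinogalactan proteins.

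Arabinogalactan proteins are secreted cell wall proteins rich in proline, alanine, serine and threonine. Prolyl hydroxylases convert prolines of the backbone to hydroxyproline in the secretory pathway, and glycosyltransferases then build branched arabinogalactan chains on it. Most classical members, AG peptides and many fasciclin-like members are tethered to the outer face of the plasma membrane by a glycosylphosphatidylinositol (GPI) anchor. In stems the fasciclin-like members FLA11 and FLA12 are known for their role in secondary walls.

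The samples were sgr1 and wild type of the Columbia accession, hybridised together on 2 two-colour Agilent arrays with swapped dyes. The sgr1 (shoot gravitropism 1) mutant is defective in SCARECROW (SCR), a GRAS transcription factor needed to form the endodermis. The sources used here do not name the allele. Plants grew on soil in constant white light at 23 °C. Stem segments 1.5 cm long, taken 0.3 to 1.8 cm below the apex of primary inflorescence stems 5 to 8 cm tall and stripped of lateral organs, were pooled from at least 10 plants per RNA sample. The source is named as the elongation zone. On array 1 sgr1 carried Cy3 and wild type Cy5, and on array 2 sgr1 carried Cy5 and wild type Cy3.

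Ratios are log2 values of sgr1 over wild type, given per array or as the mean ± SD of the 2 arrays, so that a positive value means a higher level in sgr1. Intensities are background-corrected and dye-normalized spot intensities, with a constant of 50 added by the correction, and can be compared between genotypes for a gene but not between genes. Adjusted p-values come from limma fitted over all 19059 genes tested, with Benjamini-Hochberg adjustment, and a gene was called at an adjusted p under 0.05. The labels speak of biological replicates but also number the samples as a single replicate, so the spread between these arrays may be technical. The p-values rest mostly on that spread pooled over all genes tested (47.7 prior degrees of freedom). A gene's own spread, given as its SD, adds only 1 degree of freedom, so the p-value is not a test of that SD alone. Each RNA came from whole stem segments, in which fewer cells of a type and less RNA per cell cannot be told apart.

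Both arrays lay on 1 slide. In each channel 59.2% to 66.5% of spots other than controls stood well above background, and none was saturated. SCR was 1.98-fold lower in sgr1 (-0.99 ± 0.245, adjusted p = 3.29e-07), and where its probe lies relative to the lesion was not examined. Summed intensities of SCR, SHR and SCL23, listed for the endodermis, were 6444 and 6950 in sgr1, against 8062 and 9892 in wild type. The largest part was SHR, with 3410 and 3694 in sgr1, against 4731 and 5588 in wild type. SHR fell (-0.53, adjusted p = 0.0038), SCR is the mutated gene itself, and SCL23 was not called, with 0.35 and 0.09 on the arrays. The sum is therefore no measure of endodermis content. Sums for 4 epidermis markers were 13068 and 16232 in sgr1, against 10332 and 11574 in wild type. Of the 4, 2 (FDH and CER5) rose, where 9.92% of all genes tested rose. ATML1 (0.07 and -0.12 on the arrays) and PDF2 (0.14 and 0.16) were not called. Of 7 xylem and fibre markers 6 were measured, with SND1 near background. Of the 6, 2 rose (CESA7 and the fibre wall switch NST1) and none fell, where 9.92% of all genes tested rose and 8.98% fell. Their sums, with SND1 included, were 20310 and 24833 in sgr1 against 17957 and 22267 in wild type. The 3 phloem markers gave 13984 and 17778 in sgr1, against 15220 and 17956 in wild type, and none was called. Mean ratios were 0.37 for SUC2, 0.02 for APL and -0.25 for SEOR1, which had the largest intensity. Such sums, here and for pollen markers below, follow the brightest probes and do not show the share of a cell type. The part of these cell types in the results below was not tested.

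Of the 25 arabinogalactan protein genes, 19 were measured, that is, had a uniform spot on both arrays and at least 1 genotype well above background on each. Of the 19, 5 fell and 2 rose in sgr1, against 8.98% and 9.92% of all genes tested. The 7 calls are 36.8% of the measured members, where 18.9% of all genes tested were called. The falls were of AGP7, FLA13, FLA9, AGP31 and AGP20, and the rises were of AT1G03820 and AGP21. When arrays were only centred on the median, without loess, none of the 7 was called and of all genes tested 1 was called higher and 1 lower. The mean ratios of the 7 were then -1.52 for AGP7, -1.09 for FLA13, -0.96 for FLA9, -0.90 for AGP31, -0.47 for AGP20, 0.37 for AGP21 and 0.97 for AT1G03820. The median ratio of the 19 was -0.08, beside 0.0048 over all genes tested. By size alone, 2 members (AGP7 and FLA13) changed at least 2-fold the same way on both arrays, where 1.53% of all genes tested did.

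**Figure D1:**
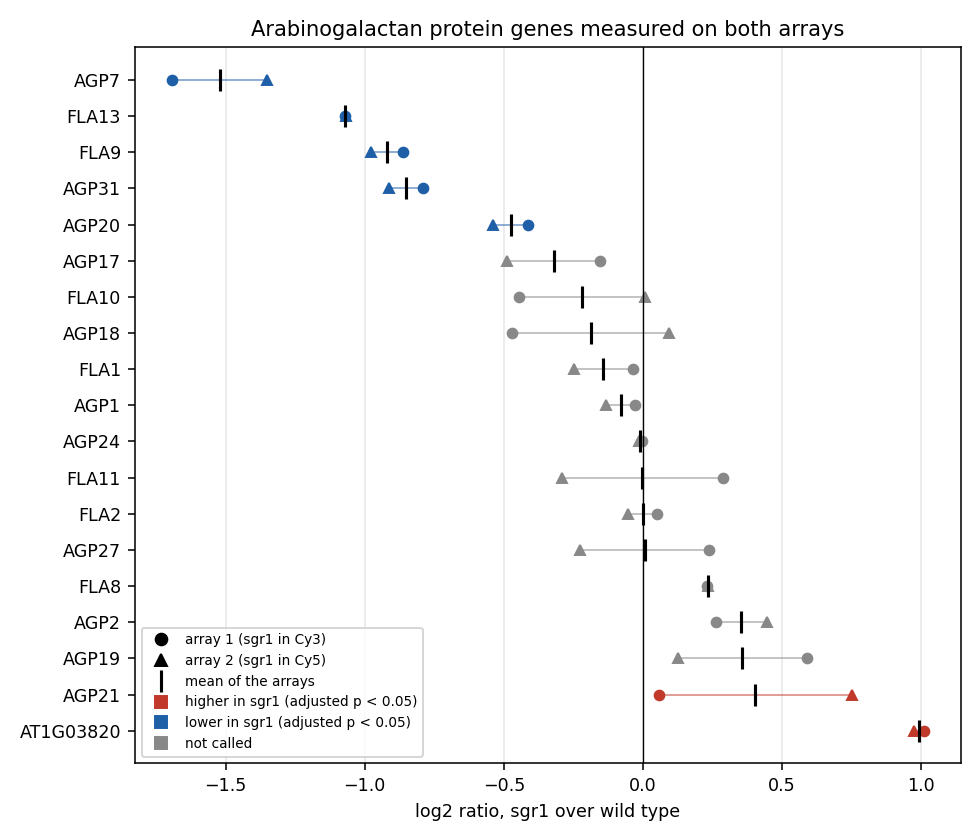
Log2 ratio of sgr1 over wild type (x axis) for each of the 19 measured arabinogalactan protein genes (rows), with array 1 as circles, array 2 as triangles and their mean as a bar; red genes were called higher and blue genes lower in sgr1. AGP7 lies farthest from 0 (-1.69 and -1.35), and AT1G03820 is the highest (1.01 and 0.97).

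AGP7, a classical arabinogalactan protein with a GPI anchor, showed the strongest change of the measured members. Its intensity was 1203 and 1561 in sgr1 on arrays 1 and 2, against 3886 and 3981 in wild type. Both sgr1 values were well below both wild type values. For this and the other called genes below, such a gap is no added support, since the test on these same values picked them. AGP7 fell 2.87-fold, with a ratio of -1.52 ± 0.241 (adjusted p = 2.45e-12, 95% interval -1.80 to -1.24). By size it ranked 118 of the 19059 genes tested.

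FLA13 and FLA9 are fasciclin-like proteins of group A, which carry a single fasciclin domain, an adhesion module shared with animal proteins. FLA13 had intensities of 8287 and 10228 in sgr1, against 17422 and 21456 in wild type. The genotypes did not overlap, and the arrays gave nearly the same ratio (-1.07 on each), so that FLA13 fell 2.10-fold (adjusted p = 3.41e-08). FLA9 had 26668 and 27916 in sgr1, against 48462 and 55007 in wild type. It fell 1.89-fold, with ratios of -0.86 and -0.98 (adjusted p = 1.09e-06). Of the 9 fasciclin-like genes of the set 7 were measured, of which 2 fell, none rose and 5 were not called (28.6% called, beside 18.9% of all genes tested), with a median of -0.14.

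FLA11, a group A protein of xylem and fibre walls, gave a ratio of 0.29 on array 1 and -0.29 on array 2. Its intensities were 7507 and 6766 in sgr1, against 6153 and 8276 in wild type, so the genotypes overlapped and the arrays went in opposite directions. The mean ratio was -0.0020, with a 95% interval from -0.29 to 0.29. Its close relative FLA12 was left out of the test because its spot was flagged as non-uniform in Cy5 on both arrays. The flagged spot read 21637 and 28997 in sgr1, against 14522 and 14363 in wild type. Its ratios were 0.58 and 1.01, and the scanner software's own ratios were 0.63 and 0.95. With flagged spots kept, an alternative chosen after the data were seen, FLA12 rose (0.79 ± 0.31, adjusted p = 2.23e-05). The cellulose synthase subunits of secondary walls, which act in the same cells, had ratios of 0.29 (CESA4), 0.40 (CESA7) and 0.17 (CESA8), and CESA7 passed the test (adjusted p = 0.0364).

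The group C fasciclin-like genes of the set were measured in full and none of the 4 was called. These were FLA1, which affects shoot regeneration in culture (-0.14), FLA2 (-0.0015), FLA8 (0.23) and FLA10 (-0.22). FLA2 had 15117 and 16935 in sgr1, against 14581 and 17595 in wild type, and its 95% interval ran from -0.28 to 0.28. FLA8 differed most evenly, by 0.23 and 0.24 on the arrays, but missed the threshold (adjusted p = 0.264).

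AGP31 is a chimeric protein of vascular tissue that joins an arabinogalactan-bearing region to a domain shared with pollen Ole e 1 allergens, and its transcript is known to be repressed by methyl jasmonate. It had intensities of 55404 and 58469 in sgr1, against 95923 and 110116 in wild type. The lower wild type value was far above the higher sgr1 value. AGP31 fell 1.81-fold, with ratios of -0.79 and -0.91 (adjusted p = 5.13e-06).

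**Figure D2:**
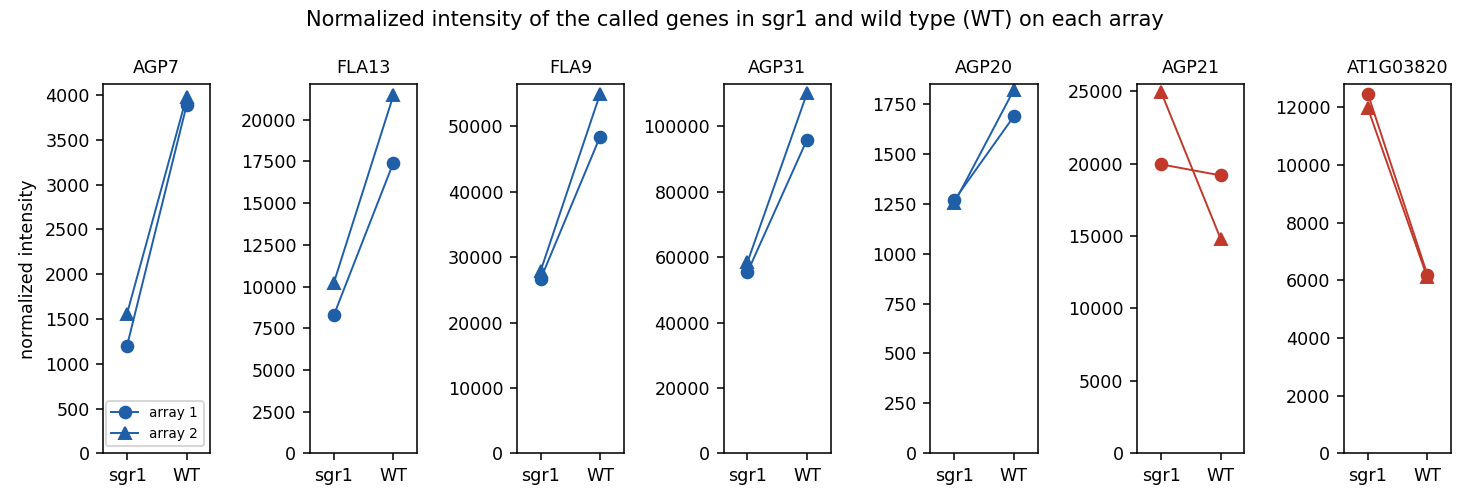
Normalized intensity (y axes, each from 0) of the 7 called genes in sgr1 (left) and wild type (right), with array 1 as circles and array 2 as triangles joined within an array. The genes were picked by the test on these same values, so a gap between genotypes is no added support. The gap of AGP21 on array 1 is small (19952 in sgr1 against 19188 in wild type).

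The 3 AG peptides went different ways. AG peptides are the shortest members of the family. AGP20 had 1268 and 1253 in sgr1, against 1687 and 1819 in wild type. It fell 1.39-fold (-0.47 ± 0.0886, adjusted p = 0.0109), and the call was lost from the scanner software's ratios (-0.49, adjusted p = 0.0904) or processed signals (-0.48, adjusted p = 0.444). AGP24 did not pass (-0.0093), with 840 and 937 in sgr1 and 842 and 946 in wild type. AGP21, which acts in root hair cell fate downstream of brassinosteroid, had 19952 and 24960 in sgr1, against 19188 and 14828 in wild type. The arrays gave ratios of 0.06 and 0.75, a mean of 0.40 ± 0.491 (adjusted p = 0.0463). Without array 2 the value of AGP21 is 0.06, without array 1 it is 0.75, and the call was lost with 10 of 11 other settings.

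AT1G03820 is described on the array as an expressed protein with similarity to a pear arabinogalactan protein and to a cotton protein, and no symbol or role is given to it here. It had 12470 and 11970 in sgr1, against 6198 and 6097 in wild type. Both sgr1 values were nearly the same and lay far above wild type, so that it rose 1.99-fold (0.99 ± 0.0248, adjusted p = 2.1e-07). It is the only member called higher that kept its call with 10 of 11 other settings.

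Of the other classical members, none passed. AGP1 had 13529 and 14716 in sgr1, against 13783 and 16125 in wild type, with a ratio of -0.08 ± 0.0743 and a 95% interval from -0.36 to 0.20. AGP2 had 2484 and 2959 in sgr1, against 2071 and 2173 in wild type, with ratios of 0.26 and 0.45 on the arrays. Its mean ratio of 0.35 missed the threshold (adjusted p = 0.0681). AGP27 had opposite signs on the arrays (0.24 and -0.22). AGP4, known for its role in the persistent synergid cell after fertilisation, had a non-uniform spot on both arrays that read 13106 and 11976 in sgr1, against 9119 and 10392 in wild type (0.52 and 0.20). With flagged spots kept it did not pass (adjusted p = 0.0616).

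The lysine-rich proteins carry a short basic stretch inside the arabinogalactan-bearing backbone, and none of the 3 was called. AGP17, known from the binding of Agrobacterium to roots, had 1718 and 1728 in sgr1, against 1910 and 2425 in wild type (-0.32 ± 0.238, adjusted p = 0.107). The separate probes of AGP17 gave -0.34 and -0.30. AGP18, which acts in the female gametophyte, had ratios of -0.47 and 0.09. AGP19, needed for growth and cell division, had 0.59 and 0.12 and missed the threshold (adjusted p = 0.0729).

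The remaining 6 of the 25 members have no tested ratio. FLA7, FLA12 and AGP4 had flagged spots, of which FLA7 read 0.39 and 0.02 (adjusted p = 0.367 with flagged spots kept). AGP3, AGP5 and AT1G12670 were not well above background in sgr1 on either array. In wild type AGP5 and AT1G12670 were well above background on 1 array and AGP3 on neither.

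**Figure D3:**
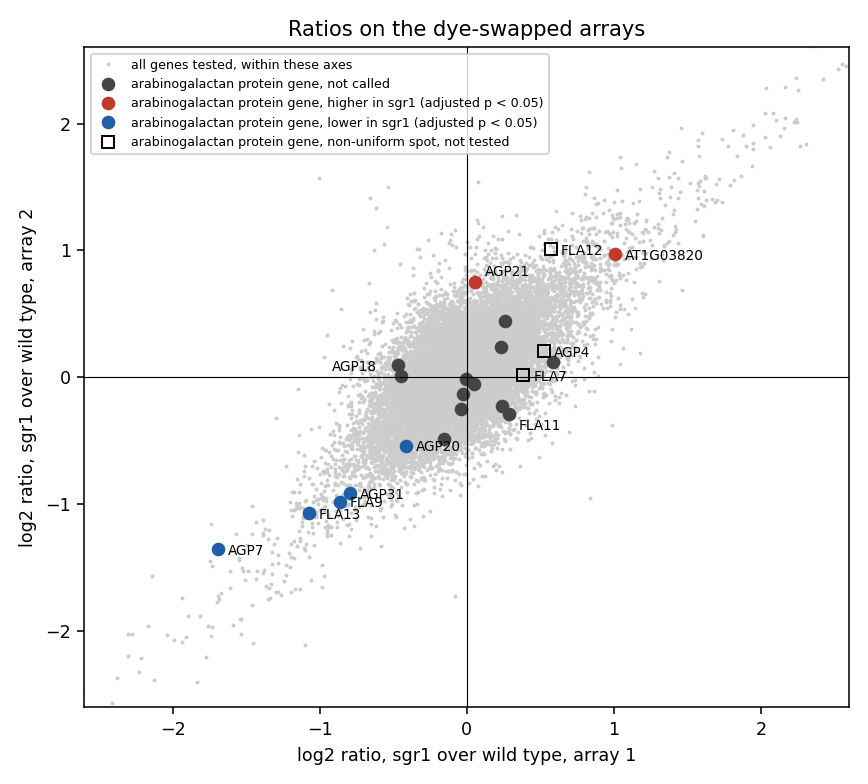
Log2 ratio of sgr1 over wild type on array 1 (x axis) and array 2 (y axis) for all genes tested (grey, within the axes shown), for the measured arabinogalactan protein genes (filled) and for the 3 with non-uniform spots (open squares). The 5 genes that fell lie near the diagonal, while AGP21 lies close to 0 on array 1 and at 0.75 on array 2.

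The arrays differed by at most 0.70 for a measured member (AGP21). The median gap between arrays was 0.18 over the measured members and 0.19 over all genes tested. Of the 19, 5 had opposite signs on the arrays, beside 6242 of all 19059 genes tested. All 7 called members had the same sign on both, as had 3592 of all 3602 called genes. A shared sign thus mostly follows from the call.

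Some array descriptions hold only a number or describe a protein in other words, so that known family members can lack the word arabinogalactan. A list of 51 family loci holds 23 of the 25 genes above and 28 others, of which 18 were measured. Among those 18, 4 rose and none fell, so that 22.2% were called, near the 18.9% of all genes tested. The median of the 18 was 0.07. Of the 10 not measured, 8 lacked a genotype well above background on each array and 2 (AGP12 and FLA16) had flagged spots. Among the 8, FLA5 was well above background on 1 array in both genotypes, and AGP23 on 1 array in sgr1.

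Of the 4 that rose, 3 encode AG peptides. AGP41 had 3321 and 3200 in sgr1, against 1778 and 2062 in wild type. AGP41 rose 1.70-fold (0.77 ± 0.189, adjusted p = 3.88e-05). The gap between its genotypes is no added support, since the test on these same values picked it. AGP22 had 318 and 351 in sgr1, against 246 and 256 in wild type (0.41 ± 0.0602, adjusted p = 0.0292). AGP13 was dim, with 102 and 115 in sgr1 and 77 and 90 in wild type (0.38 ± 0.0305, adjusted p = 0.0455), and wild type was well above background on only 1 array. The size of its rise differed between settings, with 0.63 at a normexp offset of 16, 1.67 from the software's ratios and 1.69 from processed signals, and AGP13 was not tested where both genotypes had to be above background. Over both sources 9 of 12 AG peptide genes were measured, 4 rose, AGP20 fell and 4 were not called, with a median of 0.27. Over all genes tested 9.92% rose and 8.98% fell. AGP14 (0.27), AGP15 (0.10) and AGP16 (-0.24) did not pass. The separate probes of AGP16 differed, at -0.06 and -0.42, and the brighter probe alone passed the test.

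The 3 rises of AGP41, AGP22 and AGP13 were lost with median centring, that of AGP41 also from processed signals and that of AGP22 also from processed signals and the software's ratios.

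The fourth was FLA15, of the group B fasciclin-like proteins, which had 932 and 1006 in sgr1, against 637 and 775 in wild type. It rose 1.38-fold (0.46 ± 0.121, adjusted p = 0.0131), a call lost with the same settings as that of AGP22. The other group B genes measured, FLA17 (0.20) and FLA18 (0.08), were not called. FLA4, also named SOS5, which acts in cell expansion and salt tolerance of roots, had 0.08 and -0.47 on the arrays. The receptor kinases that act with FLA4 in roots were not called either, with ratios of 0.03 (FEI1) and -0.23 (FEI2).

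AGP6 and AGP11, which are known from pollen, had intensities of 227 and 229 (AGP6) and 91 and 93 (AGP11) in sgr1. In wild type they had 203 and 236 (AGP6) and 84 and 84 (AGP11). Neither was called, at 0.06 and 0.13. Of 5 other pollen markers 2 were not well above background in any channel, and their summed intensity was 410 and 457 in sgr1, against 378 and 409 in wild type. VGD1, a pectin methylesterase of pollen tubes, was called higher in sgr1 at low intensity (101 and 140 in sgr1, 74 and 99 in wild type; adjusted p = 0.0105).

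**Figure D4:**
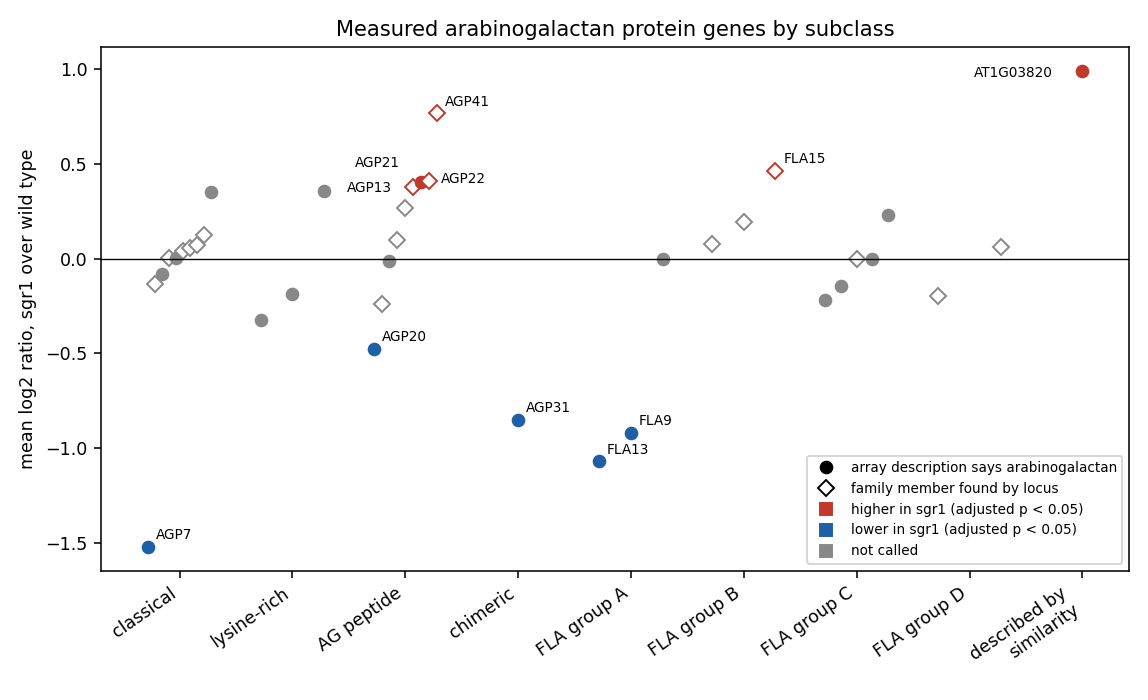
Mean log2 ratio of sgr1 over wild type (y axis) of the 37 measured genes of both sources by subclass (x axis), with filled circles for genes described as arabinogalactan proteins and open diamonds for family members found by locus. Of the AG peptides 4 are red (called higher) and AGP20 is blue (called lower), while group C and D fasciclin-like genes hold no called gene.

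Over both sources, 37 of 53 genes were measured, 6 rose and 5 fell (29.7% called, beside 18.9% of all genes tested). The members that fell belong to the classical proteins (1 of 10 measured), the AG peptides (1 of 9), the chimeric proteins (AGP31, the only 1 measured) and group A of the fasciclin-like proteins (2 of 3). Of all genes tested 8.98% fell. Group A has 6 genes, and those left out for flagged spots, FLA7 and FLA12, had mean ratios above 0 (0.20 and 0.79). With flagged spots kept, FLA12 was called higher, so the 2 of 3 do not describe group A as a whole. Groups C and D, with 5 and 2 measured genes, held no call. Probe sequences were not used here, so whether a probe separates close relatives such as FLA9 and FLA13 was not tested.

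Genes for enzymes that build the sugar chains, prepare their substrates or make the GPI anchor were examined together with the FEI kinases. Of these 35 genes 32 were measured, 2 fell and none rose (6.25% called, beside 18.9% of all genes tested, of which 9.92% rose and 8.98% fell). The median of the 32 was 0.10.

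Among 8 hydroxyproline galactosyltransferases, which add the first galactose, GALT5 fell. It had 1438 and 1548 in sgr1, against 1778 and 2208 in wild type (-0.41 ± 0.146, adjusted p = 0.0313), and its call was lost with those settings too. The other 7 lay between -0.12 and 0.30. Of these, GALT2, which acts redundantly with GALT5 in root and seed phenotypes, had a ratio of 0.23 and was not called (adjusted p = 0.268). Among the enzymes that extend or decorate the chains, AGM2, one of a pair of methyltransferases that add a methyl group to glucuronic acid, fell. It was dim, with 90 and 82 in sgr1 and 139 and 115 in wild type (-0.56 ± 0.0969, adjusted p = 0.00255), with sgr1 well above background on 1 array. The size of its fall differed between settings, with -0.88 at a normexp offset of 16, -1.75 from the software's ratios and -1.74 from processed signals. The call was lost with median centring, and AGM2 was not tested where both genotypes had to be above background. Its partner AGM1 was not called (-0.15). The glucuronosyltransferases GlcAT14A, GlcAT14B and GlcAT14C were at 0.07, 0.19 and 0.21, without a call. The fucosyltransferases FUT4 and FUT6 were not measured.

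None of the 3 measured prolyl hydroxylases was called. P4H5 lay lowest at -0.33 (adjusted p = 0.0956). All 6 epimerases that supply UDP-galactose or UDP-arabinose had mean ratios above 0, from 0.04 (UGE3) to 0.35 (UGE4), and none passed the test. The galactanases GH43A (0.35) and GH43B (-0.05) and the GPI anchor genes SETH1, SETH2 and PNT1 (-0.15 to 0.15) were not called.

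**Figure D5:**
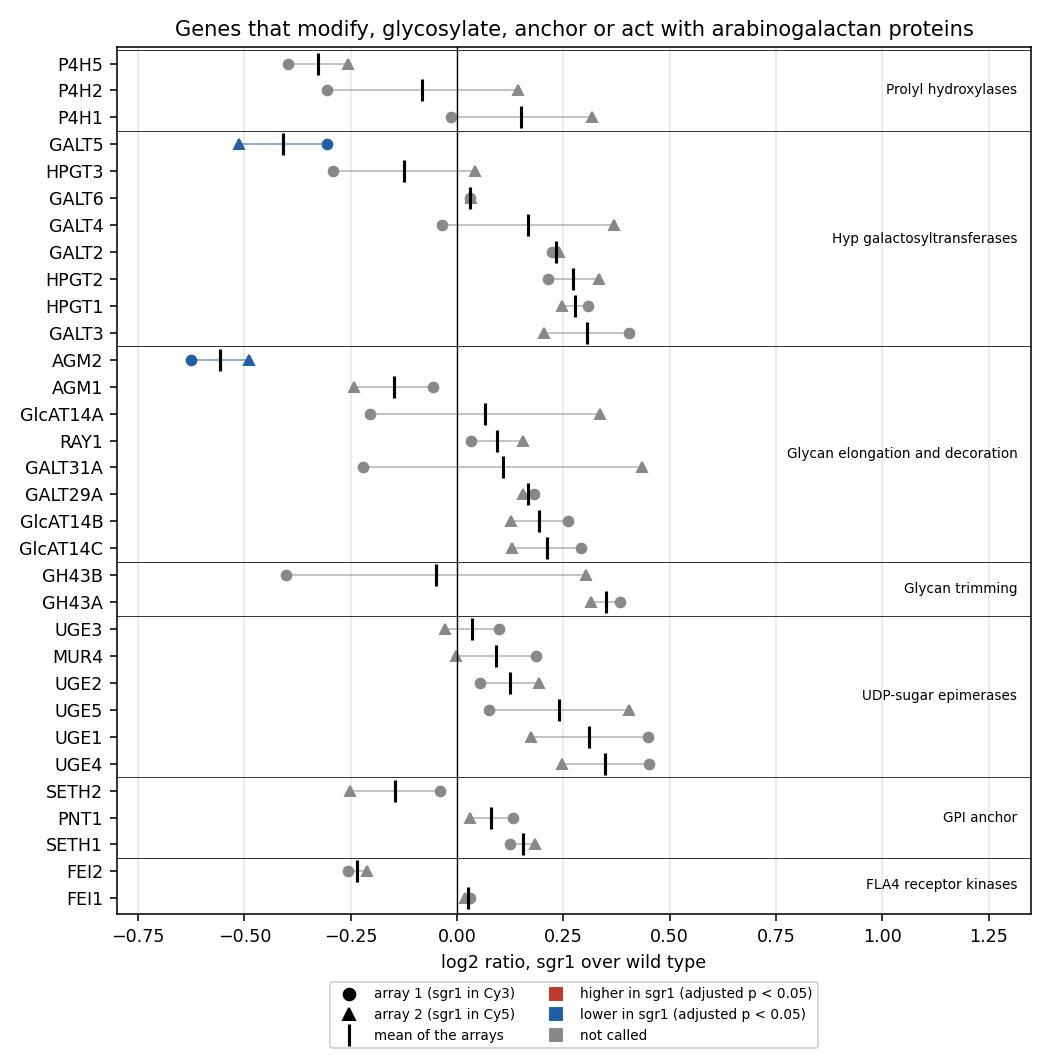
Log2 ratio of sgr1 over wild type (x axis) of the 32 measured genes that modify, glycosylate, anchor or act with arabinogalactan proteins (rows, grouped by role), with array 1 as circles, array 2 as triangles and the mean as a bar. GALT5 (-0.41) and AGM2 (-0.56) are the called genes.

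For comparison with another component of the growing wall, the cellulose synthase subunits of primary walls were CESA1 (0.43, adjusted p = 0.0247), CESA3 (0.33, adjusted p = 0.0879) and CESA6 (0.60, adjusted p = 0.00108). CESA1 and CESA6 rose and CESA3 did not pass, and both calls were lost with median centring, the software's ratios or processed signals.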

How the data were processed

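Both channels of 2 arrays were analysed. The deposited scanner files hold, for each spot, mean, background median and processed intensities and a log10 ratio of Cy5 over Cy3, made with Agilent Feature Extraction 9.1.3.1 (per the file headers). Values in the series table are that same deposited log10 ratio, not turned for the dye swap. No genome build is given in the sources used here.

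Intensities were corrected by normexp (offset 50) and normalized within arrays by loess in limma 3.58.1 under R 4.3.3, with control and flagged spots at weight 0. Array 1 was turned in sign. Flagged spots (96 and 177) were left out, and probes of a locus averaged. Each ratio was tested against 0 with lmFit and eBayes (two-sided, 1 residual and 47.7 prior degrees of freedom). The software's flag gave spots well above background. The procedure was run on simulated data with known changes, independent noise and a smooth dye bias. That run cannot show whether the spread here is technical or why calls were lost with median centring. Names came from a TAIR10.1 table or, for listed genes, from the lists.

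Every called member was named with its values, and uncalled ones as counterparts; uncalled enzymes, lysine-rich members and members with non-uniform spots were singled out after their values were seen. The members and lists were chosen with earlier results of these data known. Alternatives covered the background correction, normalization, starting values, filters, moderation, replicates and probes.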

Additional observations from a re-analysis of the deposited data

How the results depend on the processing

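The direction of the 7 called members was the same with each of the 11 planned settings that give a test and on each array alone. Several of these settings could not change it. Both channels above background, no filter on dim probes, trend and robust eBayes, and the brightest probe leave the ratios of these 7 unchanged. The count of 5 members called lower became 4 from the scanner software's log ratios or processed signals, 2 by at least 2-fold on both arrays and 0 with median centring. The count of 2 called higher became 1 with normexp offset 16, no background correction, scaling between arrays, the software's log ratios, processed signals, both channels above background, no filter on dim probes, trend and robust eBayes, or the brightest probe; AGP21 lost its call in each of these. It was 0 with median centring and by the 2-fold rule. With flagged spots kept, chosen after the data were seen, it was 3. Of all genes tested, 1891 were called higher and 1711 lower; median centring gave 1 and 1 (90 at an unadjusted p under 0.05, none a member), the software's log ratios 999 and 953, processed signals 722 and 675, and the 2-fold rule 148 and 143. The cause of the calls lost with median centring was not tested. Aquantile leaves ratios as they are by construction. A single array leaves no residual degree of freedom, so leaving out an array gives values with no test and no count. The test used is itself paired, because each array holds both genotypes and the ratio within an array is the pair.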

Other observations

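AT1G03820 and FLA9 lie 5 genes apart in the gene order of the TAIR10.1 table, the only pair among the 53 genes within 10 genes of each other. Their ratios had opposite signs, 0.99 for AT1G03820 and -0.92 for FLA9.

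The flagged spot of AGP12, an AG peptide, read 16317 and 23379 in sgr1 on the arrays, against 21974 and 20448 in wild type, with ratios of -0.43 and 0.19. That of FLA16, of group B, was flagged on 1 array and read 0.17 and 0.04. Neither passed with flagged spots kept.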
